A study of Mus musculus with 24 samples.

Results

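Interferon-stimulated genes are the genes that a cell switches on when interferon binds its receptors. The 44 genes described here were chosen by name, with earlier results of these data known. They include the receptor subunits, the kinase Jak2, the transcription factors of the pathway and 2 feedback inhibitors. Sensors of foreign nucleic acid and a set of antiviral effectors are also among them. The interferon-induced GTPases and the genes of antigen presentation were left out. Of the 44, 42 had a probe set of their own on the array, out of 19938 genes measured in all. Isg15 lay only on a probe set shared with another gene symbol and Ifi44 was not named by the array's annotation, so both are not analysed here.

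All 24 arrays were hybridised with RNA of 4T1 cells, a mouse mammary carcinoma line, kept in RPMI-1640 medium with 3 mM glucose. The control group received no lactic acid, and how long it was cultured is not stated in the labels. The 7 treated groups received 20 mM lactic acid for 1, 3, 4, 5, 7, 9 or 11 days. There were 3 arrays in each of the 8 groups; their titles call them biological replicates and do not say whether they were separate cultures. By its design text, the study looked for genes that change over time while lactic acid extends survival under low glucose. Glucose was 3 mM in every group. In the comparisons with control, lactic acid and time in culture cannot be told apart.

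Type I interferons bind a receptor made of Ifnar1 and Ifnar2, and interferon gamma binds one made of Ifngr1 and Ifngr2. Kinases on the receptor tails, Jak2 among them for interferon gamma, activate STAT proteins. Stat2 joins Irf9 in a complex that binds the interferon-stimulated response element in promoters, while interferon gamma acts through the gamma-activated site. Irf7 amplifies the response, and Usp18 and Socs1 restrain it.

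The response element occurs in the promoters of several members. The stretches printed here show where it lies in those of them whose signals on every array are given below. The table of RefSeq promoters (GRCm38.p6) held 34 of the 44 members, and the 250 bases before each start were searched on both strands. The core of the element, GAAA followed by any 2 bases and another GAAA, was present in 10 of the 34 members (29.4%), against 3.46% of all 27025 genes in that table. Capitals mark the core as it reads 5′ to 3′ on the gene's strand, so that TTTC, any 2 bases and TTTC is the core on the other strand.
Oas1a (chr5:120907526-120907565, - strand): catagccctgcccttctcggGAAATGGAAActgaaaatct
Oas3 (chr5:120777705-120777754, - strand): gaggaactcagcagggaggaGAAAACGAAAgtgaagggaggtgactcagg
Ifit1 (chr19:34640765-34640814, + strand): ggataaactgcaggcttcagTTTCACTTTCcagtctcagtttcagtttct
Bst2 (chr8:71537573-71537622, - strand): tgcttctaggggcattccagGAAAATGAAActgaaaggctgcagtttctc
Rsad2 (chr12:26456543-26456592, - strand): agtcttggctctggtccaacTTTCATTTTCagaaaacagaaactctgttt
Socs1 (chr16:10785590-10785639, - strand): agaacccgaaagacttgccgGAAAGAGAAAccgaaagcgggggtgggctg
In Oas1a, Bst2 and Socs1 a second core starts inside the one in capitals, and in Ifit1 a second core, TTTCAGTTTC, stands in lower case near the end of the printed stretch. Rsad2 and Socs1 were added after their values were seen, because both hold the core and neither was called higher on any day. The other members with the core were Irf2, Stat2, Ifit3 and Isg15. The gamma-activated site, TTCNNNGAA, which reads the same on both strands, was found in 9 of the 34 members (26.5%) and in 8.13% of all genes. Its holders were Bst2, Eif2ak2, Ifit2, Ifnar2, Irf1, Irf2, Isg20, Oas1a and Samhd1. Irf7 and Irf9 held neither set of letters in the window searched, and the bases next to their starts are given for comparison.
Irf7 (chr7:141266425-141266484, - strand): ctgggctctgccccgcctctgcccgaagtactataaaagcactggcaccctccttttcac
Irf9 (chr14:55603925-55603984, + strand): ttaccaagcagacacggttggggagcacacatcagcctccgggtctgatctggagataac
Such a match describes letters and is no evidence of binding.

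Most of the members were higher in cells kept in lactic acid for 3 days or longer than in control cells. Because the list was made with earlier results of these data known, its excess over all genes is not independent of that choice. A gene was called when its adjusted p was below 0.05 in limma's moderated test, with Benjamini-Hochberg adjustment over all 19938 genes of a comparison. On day 3, 22 of 42 members were higher, while 12.4% of all genes were. The counts of members called higher for days 4, 5, 7, 9 and 11 were 30, 32, 32, 29 and 27, in that order, while 14.0%, 17.2%, 16%, 13.1% and 14.0% of all genes were. At most 1 member, Ifngr2, was called lower on any of these days, while in the same order of days 13.9%, 12.9%, 10.3%, 9.44%, 14.0% and 11.8% of all genes were lower. With each array centred on its median, 8.84% of all genes were higher and 15.4% lower on day 3, and 19 members were higher and 1 lower. After cyclic loess, 15.6% of all genes were higher and 14.5% lower on day 5, and 32 members were higher and 0 lower.

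**Figure D1:**
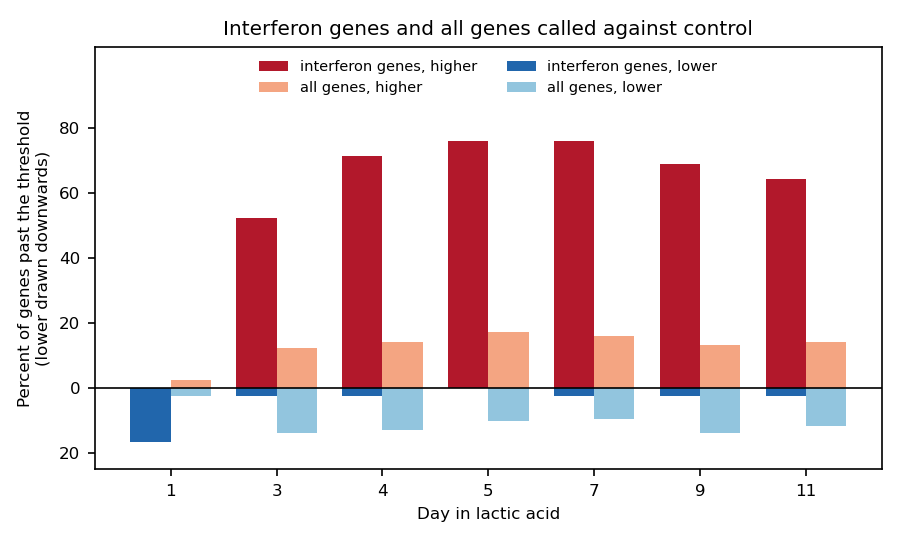
Percent of the 42 measured interferon genes and of all 19938 genes called higher (upwards) or lower (downwards) than control on each day in lactic acid (horizontal axis). The interferon genes were listed with earlier results of these data known. The interferon genes called higher run from 52.4% on day 3 to 76.2% on days 5 and 7, while all genes lie between 12.4% and 17.2%; on day 1 the order is turned, with 16.7% of the interferon genes called lower and 0% higher.

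The median log2 change of the 42 members for days 3, 4, 5, 7, 9 and 11 was 0.53, 0.87, 0.76, 0.89, 0.66 and 0.72. Over all genes the median stayed between -0.04 and 0.07 on those days. Of the 42 members, 20 were higher on all 6 days from day 3 to day 11, a pattern that 6.69% of all genes had. These were Irf2, Irf7, Irf9, Usp18, Ifih1, Ddx58, Dhx58, Isg20, Oas3, Oasl2, Bst2, Adar, Parp9, Parp14, Dtx3l, Trim25, Rtp4, Ifi27, Ifi35 and Xaf1. In all, 36 members were higher on at least 1 day (27.3% of all genes). Called rises of at least 2-fold numbered 7 members on day 3, beside 436 of all 19938 genes. On days 4 and 7 they numbered 19 members each, beside 681 and 795 of all genes. On at least 1 of the 7 days, day 1 included, 8 members were lower (22.9% of all genes). Socs1, Zbp1, Ifit2, Mx1 and Rsad2 were called in neither direction on any day. All 7 comparisons use the same 3 control arrays, so their counts are not independent of each other. In such bulk RNA a change in the share of responding cells and a change in RNA per cell cannot be told apart.

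**Figure D2:**
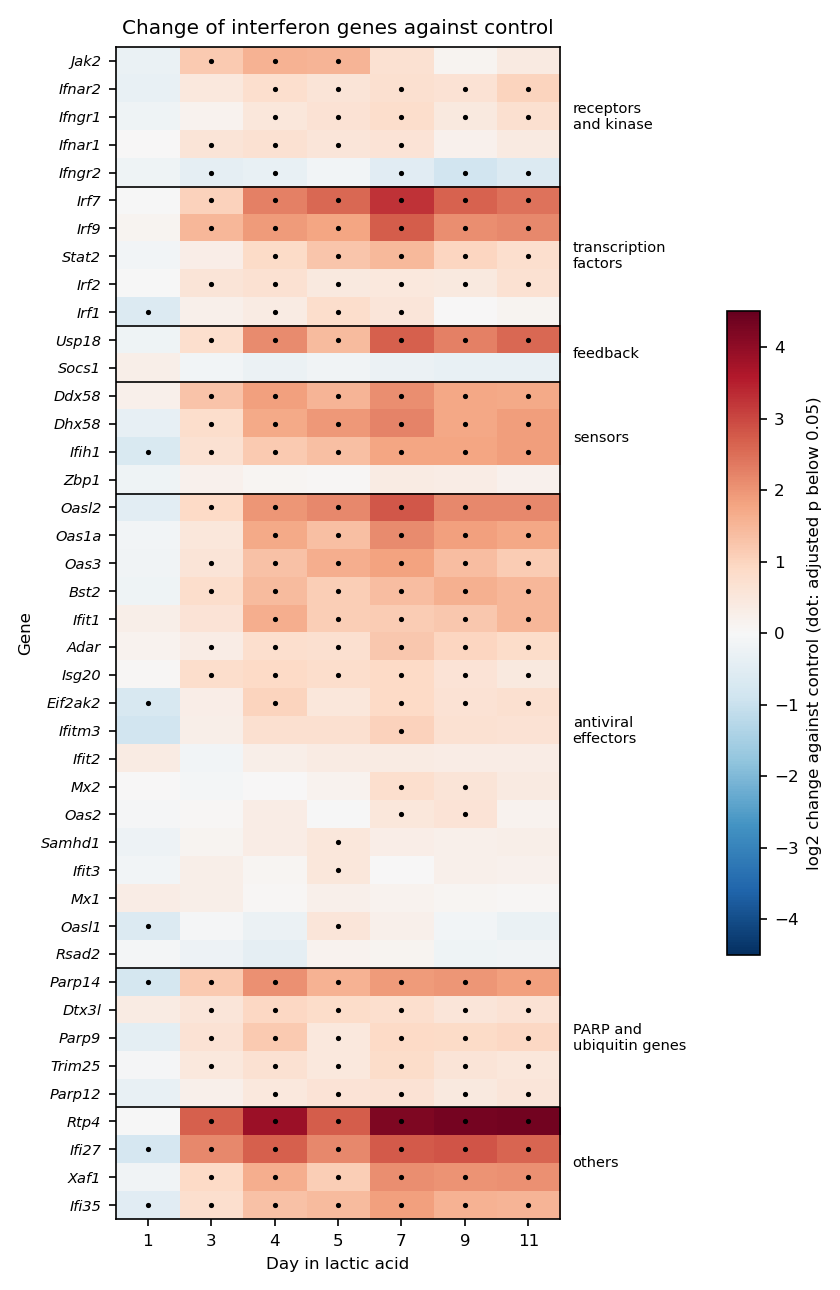
Fitted log2 change against control (colour, red higher and blue lower) of each of the 42 measured interferon genes (rows, grouped by role) on each day in lactic acid (columns), with a dot where the adjusted p was below 0.05. Rtp4, at 4.35 on day 11, is the deepest red; the column for day 1 holds 7 dots, all on blue cells.

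Several arrays stood apart. The spread of signals across genes was 1.94 (SD) on day 1 replicate 1 and 2.16 to 2.34 on the other 23 arrays. On day 9 the median signals of all probe sets were 4.49, 4.70 and 4.64. Replicate 1 of day 9 lay above replicates 2 and 3 in the mean change of the members, which was 1.20, 0.89 and 0.93. That is a difference in the outcome itself. On every other day from day 3 on, the 3 arrays lay closer together: they spanned 0.51 to 0.63 for day 3, 0.96 to 1.06 for day 4, 0.92 to 1.01 for day 5, 1.15 to 1.27 for day 7 and 0.99 to 1.04 for day 11. Without day 1 replicate 1 and day 9 replicates 2 and 3, the members called higher for days 3, 4, 5, 7 and 11 were 27, 32, 34, 35 and 31. Of all genes, 18.7%, 18.9%, 23.6%, 20.9% and 18.3% were then higher on those days, more than in the fit of all 24 arrays. Day 9 was then left with 1 array, on which the median change of the members was 0.84. Apart from the fibroblast list, markers of other cell types were mostly dim. None of the 10 leukocyte, 7 endothelial or 4 adipocyte genes was called higher on any day. The mean log2 signal of the leukocyte list was 3.77 to 3.81 in control and 3.59 to 3.99 from day 3 on, with Ptprc, its defining gene, at 3.25 in control and 3.27 on day 11. Cd68, at 7.32 in control, lay above the median gene (5.11), unlike the other 9 leukocyte genes. Fcer1g was called lower on 3 days and Cd3e on 1. The plasmacytoid dendritic cell list, whose cells make much type I interferon, ranged from 3.71 to 3.94 in control and from 3.81 to 4.17 from day 3 on; Cox6a2 was its only riser, by 1.40 on day 9. In the fibroblast list (4.78 to 4.90 in control, 5.13 to 5.54 from day 3 on) Pdgfra rose by 2.92 and Pdgfrb by 1.42 on day 4. Thy1 was called on day 3 only, and the collagen genes Col1a1, Col1a2 and Col3a1 were not called higher on any day. The part of these fibroblast markers in the members' rise was not tested. As for the label of the line itself, the epithelial keratins Krt8 and Krt18 were bright (11.1 and 11.0 in control). Krt7 (7.42), Krt19 (6.07) and Cdh1 (5.20) lay above the median gene (5.11), and Cldn7 (4.5), Krt14 (4.3) and Epcam (4.12) below it. Epcam and Cdh1 were called higher on 6 days, Krt18 and Krt7 on 2. Lower calls were those of Krt19 on 6 days, Krt8 on 3 and Krt7 on 1. Krt14 and Cldn7 were called on no day.

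On day 1 the calls among the members were all lower. None of the 42 was called higher, against 2.30% of all genes, and 7 were called lower, against 2.52% of all genes. At an unadjusted p below 0.05, limma gave 2 members higher and 11 lower. The shares of all genes at that threshold were not worked out, so these counts have no background here. The 7 were Irf1, an activator of interferon responses, the RNA sensor Ifih1, Oasl1, a brake on Irf7 translation, the RNA-activated kinase Eif2ak2, Parp14, Ifi27 and Ifi35. Each of them was called higher on a later day. The median change of the members was -0.16 on day 1, with 0.05 over all genes, and the mean change on the 3 arrays was -0.22, -0.17 and -0.17. In 12 of the 42 members the 3 day 1 arrays lay below all control arrays, while 9.59% of all genes showed this. In 4 members they lay above all control arrays, beside 2251 of all 19938 genes.

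For Ifi27, control signals were 7.63, 7.46 and 7.46 and day 1 signals 6.79, 6.76 and 6.75. Those of day 3 were 9.68, 9.59 and 9.73 for Ifi27, those of day 4 10.23, 10.21 and 10.21 and those of day 5 9.81, 9.54 and 9.71. Late Ifi27 signals were 10.21, 10.31 and 10.33 at day 7, 10.21, 10.42 and 10.37 at day 9 and 10.18, 10.17 and 10.03 at day 11. The day 1 arrays lay below and the later arrays above every control array. Ifi27, a mitochondrial protein induced by type I interferon, was lower by 0.75 on the log2 scale on day 1 (SE 0.101, adjusted p = 8.29e-05, limma, n = 3 arrays a group) and higher by 2.15 on day 3. In control cells Parp14 read 5.27, 5.24 and 5.28, and after a day in lactic acid 4.16, 4.54 and 4.74. By day 3 Parp14 was at 6.39, 6.38 and 6.52, by day 4 at 7.17, 7.42 and 7.33 and by day 5 at 6.83, 6.75 and 6.94. Parp14 signals were 7.18, 7.06 and 7.30 at day 7, 7.45, 7.31 and 7.05 at day 9 and 7.10, 7.10 and 7.18 at day 11. Parp14, which attaches mono-ADP-ribose to proteins, showed the same separation, with a change of -0.78 on day 1 (SE 0.131, adjusted p = 0.000904) and 2.04 on day 4 (SE 0.131, adjusted p = 3.63e-11). The other 5 changed by -0.69 for Ifih1, -0.73 for Eif2ak2, -0.62 for Irf1, -0.62 for Oasl1 and -0.52 for Ifi35. The day 1 count depended on the arrays and the weights: it was 3 without control replicate 2, 4 without control replicate 3, 0 in a fit of only the 6 arrays (8 at an unadjusted p below 0.05) and 24 with array weights. With array weights, 6 members were higher and 18 lower, while 21.8% of all genes were higher and 21.5% lower. After cyclic loess, 1 member was higher and 8 were lower, with 4.00% and 3.66% of all genes; with arrays centred on their medians, 0 were higher and 5 lower, with 2.50% and 1.52%. Without day 1 replicate 1, whose narrow spread is given above, 6 members and 1.91% of all genes were lower. Eif2ak2 (-0.32, adjusted p = 0.191) and Ifi35 (-0.39, adjusted p = 0.0957) were then no longer called. The day 1 call of Eif2ak2 was also lost without any 1 control array (-0.79 to -0.67, adjusted p 0.0942 to 0.171), and that of Oasl1 without any 1 control array, day 1 replicate 2 or day 1 replicate 3 (-0.70 to -0.48, adjusted p 0.069 to 0.195). Ifi35 lost it without control replicate 2 (-0.50, adjusted p = 0.104) or 3 (-0.47, adjusted p = 0.114), and Irf1 without control replicate 2 (-0.58, adjusted p = 0.0616).

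From day 1 to day 3, 28 members rose and none fell, while 13.6% of all genes rose and 13.7% fell. Ifi27 rose by 2.90, Rtp4 by 2.71, Parp14 by 1.95, Jak2 by 1.48 and Ifih1 by 1.39. This step does not use the control arrays. From day 3 to day 4 another 14 members rose and none fell, whereas only 0.587% of all genes rose and 0.727% fell. Usp18 rose by 1.38 (SE 0.162, adjusted p = 3.8e-05), Irf7 by 1.22, Oas1a by 1.19, Rtp4 by 1.13 and Oasl2 by 1.06. The count of 14 fell to 9 without day 3 replicate 1, 7 without day 3 replicate 2, 9 without day 3 replicate 3, 8 without day 4 replicate 1 and 7 without day 4 replicate 2.

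The next step was mixed. From day 4 to day 5, Rtp4 fell by 1.12, Parp9 by 0.73, Usp18 by 0.71, Ifi27 by 0.53 and Parp14 by 0.47, and Oasl1 and Rsad2 rose by 0.79 and 0.54. That made 5 members lower and 2 higher, with 3.29% of all genes lower and 9.06% higher. In the same step Irf7 changed by 0.32 (adjusted p = 0.417) and Oas3 by 0.32 (adjusted p = 0.258); whether their course differed from that of Rtp4 was not tested. Without day 5 replicate 1, 11 members were called in this step. From day 5 to day 7, 9 members rose and none fell, with 2.17% of all genes higher and 3.03% lower. They were Rtp4 (1.49), Usp18 (1.26), Xaf1 (0.99), Irf9 (0.95), Oas1a (0.79), Oasl2 (0.63), Ifi27 (0.59), Ddx58 (0.55) and Adar (0.48).

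After day 7 little moved. From day 7 to day 9 only Irf9 (-0.65, adjusted p = 0.0358) and Irf1 (-0.53, adjusted p = 0.0372) were called, both lower, as were 3.74% of all genes, while 1.03% were higher. That step turned on the day 9 arrays that lie apart: 16 members were called without day 9 replicate 1, 0 without day 9 replicate 2 and 0 without day 9 replicate 3, and also 0 without any 1 of the 3 day 7 arrays. From day 9 to day 11 no member was called by limma, with 0.0451% of all genes called; 2 members had an unadjusted p below 0.05, and array weights gave 12 calls. Shares of all genes were not worked out for the unadjusted and the weighted count. Over the 7 treated days together, limma's F test called 37 of 42 members, with 44.8% of all genes. The 5 without a call were Socs1, Zbp1, Ifit2, Ifit3 and Mx1. Of the 36 members that were ever higher, 18 had their highest mean on day 7.

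Among the receptor subunits, the pair for type I interferon rose and the pair for interferon gamma parted. Ifnar2 read 6.93, 6.99 and 7.06 on the control arrays and 5.87, 7.04 and 7.02 on the day 1 arrays. The Ifnar2 arrays of day 3 gave 7.52, 7.50 and 7.39, those of day 4 gave 7.86, 7.73 and 7.66 and those of day 5 gave 7.51, 7.57 and 7.64. At later times Ifnar2 read 7.74, 7.88 and 7.50 (day 7), 7.70, 7.67 and 7.61 (day 9) and 7.88, 8.08 and 8.08 (day 11). The arrays of day 3 and every later day lay above all control arrays, and day 1 replicate 1, at 5.87, lay below the other 2 arrays of its day. Ifnar2, the signalling subunit with the longer tail, was called from day 4 on and reached 1.02 on day 11 (SE 0.194, adjusted p = 0.000252, a 2.02-fold rise). Its day 5 call (0.58, adjusted p = 0.0278) was lost without any 1 control array, day 5 replicate 2 or day 5 replicate 3 (0.55 to 0.61, adjusted p 0.0511 to 0.0832). Ifnar1, the other subunit, was higher on days 3, 4, 5 and 7 by 0.55 to 0.70.

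Ifngr1, the ligand-binding subunit for interferon gamma, was higher from day 4 on by 0.45 to 0.80; its day 9 call (0.45) was lost without control replicate 1 (0.42, adjusted p = 0.0676), control replicate 2 (0.45, adjusted p = 0.0528) or day 9 replicate 1 (0.34, adjusted p = 0.105). In control cells Ifngr2 read 8.01, 8.08 and 8.12, and after a day in lactic acid 8.16, 7.66 and 7.78. By day 3 Ifngr2 was at 7.70, 7.59 and 7.72, by day 4 at 7.84, 7.72 and 7.67 and by day 5 at 7.81, 8.03 and 8.06. Ifngr2 signals were 7.55, 7.64 and 7.51 at day 7, 7.38, 7.04 and 7.25 at day 9 and 7.42, 7.44 and 7.51 at day 11. Its partner Ifngr2 lay below all control arrays on days 3, 4, 7, 9 and 11 and overlapped them on days 1 and 5. Ifngr2 was the only member called lower on more than 1 day, with changes of -0.40, -0.33, -0.51, -0.85 and -0.62 on days 3, 4, 7, 9 and 11 (SE 0.122, adjusted p = 8e-06 on day 9). The day 4 call was lost without any 1 of its 6 arrays (-0.38 to -0.29, adjusted p 0.0532 to 0.153), and the day 3 call without control replicate 3 (-0.38, adjusted p = 0.0593) or day 3 replicate 2 (-0.36, adjusted p = 0.0666).

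For Jak2, control signals were 8.47, 8.24 and 8.45 and day 1 signals 7.16, 8.64 and 8.47. Those of day 3 were 9.56, 9.56 and 9.60 for Jak2, those of day 4 9.95, 10 and 9.94 and those of day 5 9.71, 9.99 and 10.03. Late Jak2 signals were 9.23, 9.37 and 8.64 at day 7, 8.88, 8.25 and 8.38 at day 9 and 8.53, 8.89 and 9.00 at day 11. All arrays of days 3, 4 and 5 lay above the control arrays, and those of day 9 overlapped them. Jak2 was called on those 3 days only, at 1.19, 1.57 (SE 0.26, adjusted p = 4.35e-05) and 1.52. It was 0.69 on day 7 (adjusted p = 0.0535) and 0.12 on day 9 (adjusted p = 0.824). The fall from day 5 to day 7, by 0.83, did not pass the threshold (adjusted p = 0.066).

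**Figure D3:**
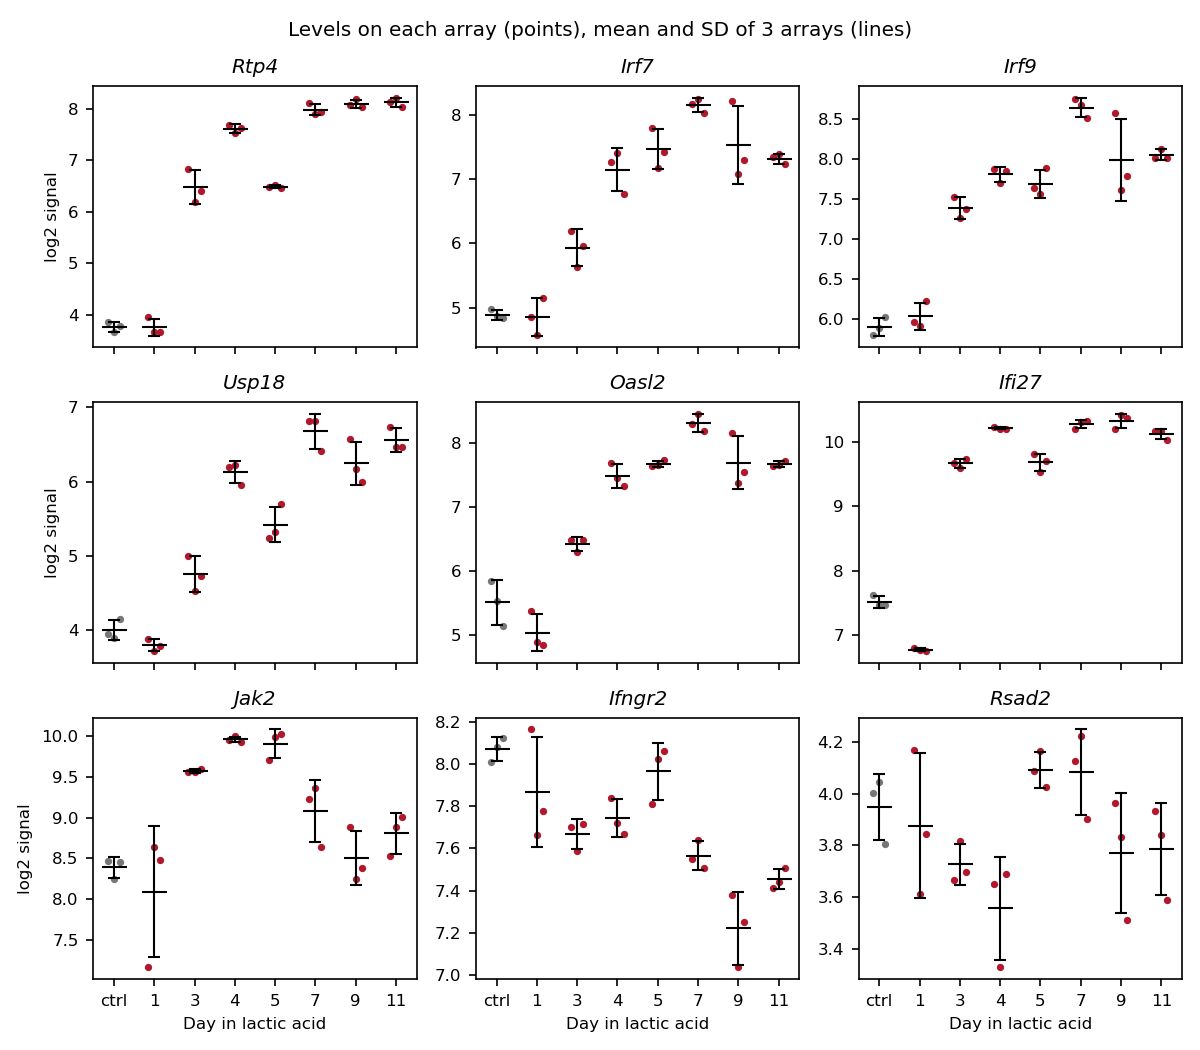
Log2 signal of 9 members on each of the 24 arrays (points; grey control, red lactic acid), with the mean and SD of the 3 arrays of a group (black lines), by day in lactic acid. Rtp4, Irf7, Irf9, Usp18, Oasl2 and Ifi27 stand above control from day 3 on, Jak2 peaks on days 4 and 5, Ifngr2 sinks below control and Rsad2 shows no call; the vertical axes differ between panels and do not start at 0.

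All 5 transcription factors were higher on days 4, 5 and 7. Irf7 read 4.98, 4.86 and 4.83 on the control arrays and 4.85, 4.57 and 5.15 on the day 1 arrays. The Irf7 arrays of day 3 gave 6.20, 5.63 and 5.97, those of day 4 gave 7.27, 7.40 and 6.77 and those of day 5 gave 7.79, 7.18 and 7.43. At later times Irf7 read 8.17, 8.25 and 8.03 (day 7), 8.22, 7.09 and 7.30 (day 9) and 7.34, 7.38 and 7.24 (day 11). Every array from day 3 on lay above all control arrays, while day 1 overlapped them. Irf7, the factor that drives the second wave of type I interferon genes, was 3.26 higher on day 7 (SE 0.228, adjusted p = 1.02e-10), a 9.58-fold rise. In control cells Irf9 read 5.80, 5.89 and 6.02, and after a day in lactic acid 5.96, 5.91 and 6.23. By day 3 Irf9 was at 7.53, 7.26 and 7.38, by day 4 at 7.88, 7.70 and 7.85 and by day 5 at 7.63, 7.56 and 7.89. Irf9 signals were 8.75, 8.67 and 8.51 at day 7, 8.58, 7.62 and 7.79 at day 9 and 8.02, 8.13 and 8.02 at day 11. Irf9, the DNA-binding part of the complex with Stat2, was above control on all arrays from day 3 on and peaked on day 7 as well, at 2.74 (SE 0.171, adjusted p = 1.6e-11, 6.68-fold). In both genes day 9 replicate 1 read about as high as the day 7 arrays and replicates 2 and 3 lower.

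Stat2 was higher from day 4 on, by 0.84, 1.25, 1.46, 0.97 and 0.75. Irf2, which can repress the same elements, was higher on all 6 days by 0.43 to 0.69. Irf1 was higher on days 4, 5 and 7, by 0.38, 0.79 and 0.56, and was back at 0.03 on day 9 and 0.14 on day 11. The Irf1 result rests on the brighter of its 2 probe sets (mean 7.16); the dimmer one (mean 4.55) gave -0.33 on day 5, and with the mean of both Irf1 was not called on day 1 (-0.27, adjusted p = 0.151), day 4 (0.13, adjusted p = 0.48), day 5 (0.23, adjusted p = 0.13) or day 7 (0.20, adjusted p = 0.215). The day 4 call of Irf1 was also lost without any 1 of its 6 arrays (0.34 to 0.42, adjusted p 0.066 to 0.154), and the day 5 call of Irf2 without day 5 replicate 2 (0.35, adjusted p = 0.0666).

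The feedback inhibitors differed in what they showed. For Usp18, control signals were 3.95, 3.88 and 4.15 and day 1 signals 3.88, 3.71 and 3.78. Those of day 3 were 5.00, 4.53 and 4.73 for Usp18, those of day 4 6.20, 6.23 and 5.96 and those of day 5 5.24, 5.32 and 5.69. Late Usp18 signals were 6.82, 6.81 and 6.41 at day 7, 6.57, 6.17 and 6.0 at day 9 and 6.74, 6.47 and 6.47 at day 11. The arrays of day 3 and later all lay above the control arrays, with a dip on day 5. Usp18, which strips ISG15 from proteins and blocks signalling at Ifnar2, was 2.69 higher on day 7 (SE 0.162, adjusted p = 9.08e-12, 6.44-fold) and 2.57 higher on day 11. In control cells Socs1 read 6.26, 6.24 and 6.18, and after a day in lactic acid 7.19, 6.0 and 6.32. By day 3 Socs1 was at 6.20, 6.24 and 5.89, by day 4 at 5.73, 5.92 and 6.25 and by day 5 at 5.95, 6.01 and 6.24. Socs1 signals were 5.92, 6.03 and 5.90 at day 7, 5.88, 5.94 and 5.86 at day 9 and 6.10, 5.87 and 5.75 at day 11. Socs1, which inhibits the Janus kinases, overlapped the control arrays on days 1, 3, 4 and 5, lay below them on days 7, 9 and 11, and was called on no day; its changes ran from -0.33 on day 9 to 0.27 on day 1, and its day 1 mean includes the 7.19 of the narrow-spread array.

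Of the 4 sensors, the 3 RNA sensors of the RIG-I family rose on all 6 days from day 3. Ddx58 read 6.54, 6.71 and 6.62 on the control arrays and 6.79, 6.87 and 6.87 on the day 1 arrays. The Ddx58 arrays of day 3 gave 7.88, 7.92 and 7.93, those of day 4 gave 8.47, 8.58 and 8.31 and those of day 5 gave 8.17, 8.11 and 8.18. At later times Ddx58 read 8.78, 8.70 and 8.61 (day 7), 8.69, 8.13 and 8.31 (day 9) and 8.34, 8.36 and 8.32 (day 11). No array from day 3 on overlapped the control arrays. Ddx58, which encodes RIG-I, was 2.08 higher on day 7 (SE 0.117, adjusted p = 3.03e-12, 4.21-fold). In control cells Dhx58 read 4.14, 4.26 and 4.51, and after a day in lactic acid 4.15, 3.73 and 3.89. By day 3 Dhx58 was at 5.40, 4.99 and 4.89, by day 4 at 6.25, 5.94 and 5.84 and by day 5 at 6.31, 6.40 and 6.03. Dhx58 signals were 6.92, 6.20 and 6.43 at day 7, 6.58, 5.61 and 5.98 at day 9 and 5.89, 6.37 and 6.26 at day 11. Dhx58, the regulatory member of the family known as LGP2, was also above control on every later array and reached 2.22 on day 7 (SE 0.216, adjusted p = 2.53e-08). Its day 3 call (0.79) was lost without day 3 replicate 1 (0.64, adjusted p = 0.0565). Ifih1, which encodes MDA5 and was lower on day 1, climbed to 1.88 on day 11. Zbp1, a sensor of Z-form nucleic acid, was called on no day, with changes from -0.21 to 0.36.

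The 17 antiviral effectors were split. On day 7, 11 of them were higher and 6 were not called, namely Ifit2, Ifit3, Oasl1, Mx1, Rsad2 and Samhd1. Oasl2 read 5.85, 5.54 and 5.15 on the control arrays and 5.38, 4.90 and 4.84 on the day 1 arrays. The Oasl2 arrays of day 3 gave 6.49, 6.29 and 6.48, those of day 4 gave 7.69, 7.45 and 7.32 and those of day 5 gave 7.64, 7.66 and 7.73. At later times Oasl2 read 8.29, 8.46 and 8.18 (day 7), 8.16, 7.37 and 7.55 (day 9) and 7.64, 7.66 and 7.72 (day 11). All arrays from day 3 on were above control. Oasl2, an OAS-like protein with ubiquitin-like domains, led the group at 2.79 on day 7 (SE 0.182, adjusted p = 3.38e-11, 6.94-fold). For Oas1a, control signals were 5.41, 4.96 and 5.69 and day 1 signals 4.99, 5.66 and 5.04. Those of day 3 were 5.92, 5.72 and 5.96 for Oas1a, those of day 4 7.24, 6.83 and 7.10 and those of day 5 6.69, 6.43 and 6.99. Late Oas1a signals were 7.67, 7.41 and 7.41 at day 7, 7.59, 7.17 and 6.86 at day 9 and 7.08, 7.12 and 7.09 at day 11. Oas1a was above control on every array from day 3 on and was called from day 4 on, with 2.14 on day 7 (SE 0.2, adjusted p = 1.25e-08); it has near-identical copies in the mouse genome, so which copy gave the signal is uncertain. In control cells Oas3 read 4.07, 4.29 and 4.37, and after a day in lactic acid 4.16, 4.11 and 3.98. By day 3 Oas3 was at 4.76, 4.81 and 4.85, by day 4 at 5.76, 5.64 and 5.30 and by day 5 at 5.90, 5.70 and 6.04. Oas3 signals were 6.37, 5.84 and 5.99 at day 7, 6.11, 5.45 and 5.36 at day 9 and 5.26, 5.34 and 5.58 at day 11. Oas3, like Oas1a a synthetase of the messenger that activates RNase L, was above control on all later arrays and 1.82 higher on day 7 (SE 0.173, adjusted p = 1.59e-08). Its day 3 call (0.56) was lost without control replicate 1 (0.48, adjusted p = 0.0848) or day 3 replicate 3 (0.54, adjusted p = 0.0532). Oas2, which lies beside Oas3 on chromosome 5, was higher only on days 7 and 9, by 0.50 and 0.61, and the day 7 call was lost without any 1 control array or day 7 replicate 1 or 3 (0.45 to 0.52, adjusted p 0.0569 to 0.104).

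Ifit1 read 3.27, 2.70 and 2.82 on the control arrays and 4.09, 2.73 and 2.77 on the day 1 arrays. The Ifit1 arrays of day 3 gave 3.83, 3.41 and 3.41, those of day 4 gave 4.66, 4.44 and 4.55 and those of day 5 gave 4.08, 3.92 and 4.09. At later times Ifit1 read 4.15, 4.25 and 3.77 (day 7), 4.15, 3.83 and 4.40 (day 9) and 4.46, 4.14 and 4.71 (day 11). Every Ifit1 array from day 3 on lay above the control arrays, and day 1 replicate 1 stood above the other 2 of its day. Ifit1, which binds viral RNA caps, was called from day 4 on and was 1.62 higher on day 4 (SE 0.256, adjusted p = 2.53e-05) and 1.5 higher on day 11. Its neighbours on chromosome 19 did less: Ifit2 was called on no day (-0.12 to 0.38) and Ifit3 on day 5 only (0.52), a call lost without any 1 control array (0.49 to 0.55, adjusted p 0.0786 to 0.126) or day 5 replicate 2 (0.45, adjusted p = 0.142) or 3 (0.34, adjusted p = 0.256). Ifit3 was dim throughout, with signals of 2.26 to 3.5. In control cells Bst2 read 6.90, 6.66 and 6.82, and after a day in lactic acid 6.65, 6.55 and 6.62. By day 3 Bst2 was at 7.52, 7.49 and 7.78, by day 4 at 8.20, 8.28 and 8.22 and by day 5 at 8.13, 7.73 and 7.88. Bst2 signals were 8.15, 8.15 and 8.27 at day 7, 8.30, 8.34 and 8.53 at day 9 and 8.41, 8.25 and 8.23 at day 11. Bst2, the tether that holds budding virus on the cell surface, was above control on every array from day 3 on and reached 1.59 on day 9 (SE 0.117, adjusted p = 2.02e-10). For Adar, control signals were 7.10, 6.99 and 6.96 and day 1 signals 7.11, 7.18 and 7.29. Those of day 3 were 7.44, 7.22 and 7.44 for Adar, those of day 4 7.80, 7.84 and 7.72 and those of day 5 7.81, 7.66 and 7.80. Late Adar signals were 8.20, 8.20 and 8.32 at day 7, 8.30, 7.84 and 7.88 at day 9 and 7.87, 7.84 and 7.86 at day 11. Adar, an editor of double-stranded RNA, had all arrays from day 1 on above control, was called from day 3 on and peaked on day 7 at 1.22 (SE 0.115, adjusted p = 1.52e-08). Its day 3 call (0.35) was lost without control replicate 2 (0.33, adjusted p = 0.0812) or 3 (0.32, adjusted p = 0.0932) or day 3 replicate 1 (0.31, adjusted p = 0.0999) or 3 (0.31, adjusted p = 0.0966).

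Isg20, an RNA exonuclease, was higher on all 6 days by 0.46 to 0.91. Eif2ak2 was higher on days 4, 7, 9 and 11 by 0.64 to 1.00; the day 9 call was lost without control replicate 1 (0.59, adjusted p = 0.0926), control replicate 3 (0.64, adjusted p = 0.0655), day 9 replicate 1 (0.57, adjusted p = 0.0889) or day 9 replicate 2 (0.65, adjusted p = 0.0601), and the day 11 call without control replicate 1 (0.68, adjusted p = 0.0503). Ifitm3, which blocks virus entry, was higher on day 7 only, by 1.03; without control replicate 2 (1.01, adjusted p = 0.0517), control replicate 3 (0.99, adjusted p = 0.0562) or day 7 replicate 2 (1.00, adjusted p = 0.052) it was not called. Its day 1 arrays read 8.11, 10.28 and 10.21, so that the spread of day 1 replicate 1 enters its error. Samhd1, a dNTP hydrolase, was higher on day 5 only, by 0.51, and lost the call without control replicate 1 (0.36, adjusted p = 0.0932). Oasl1 was higher on day 5 only, by 0.54, and lost it without control replicate 2 (0.45, adjusted p = 0.122), control replicate 3 (0.51, adjusted p = 0.0838) or day 5 replicate 3 (0.32, adjusted p = 0.213).

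For Rsad2, control signals were 4.00, 4.04 and 3.80 and day 1 signals 4.17, 3.61 and 3.85. Those of day 3 were 3.67, 3.82 and 3.70 for Rsad2, those of day 4 3.65, 3.33 and 3.69 and those of day 5 4.09, 4.17 and 4.03. Late Rsad2 signals were 4.13, 4.22 and 3.90 at day 7, 3.96, 3.83 and 3.51 at day 9 and 3.93, 3.84 and 3.59 at day 11. The arrays overlapped control on every day except day 4, when they lay below it. Rsad2, which encodes viperin, was called on no day against control, and its largest change was -0.39 on day 4 (SE 0.149, adjusted p = 0.0531). Cmpk2, a gene next to Rsad2 on chromosome 12 that is often induced with it and was picked here after its values were seen, was not called either, with 0.39 on day 7. Mx1, an antiviral GTPase disrupted in many laboratory strains, was called on no day, and Mx2 was higher on days 7 and 9, by 0.76 and 0.58; the day 9 call was lost without control replicate 2 (0.59, adjusted p = 0.0714), control replicate 3 (0.53, adjusted p = 0.11), day 9 replicate 2 (0.48, adjusted p = 0.142) or day 9 replicate 3 (0.60, adjusted p = 0.0681).

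All 5 measured genes of ADP-ribosylation and ubiquitin transfer were higher on every day from day 4 on. Parp14 is described above. Parp9 read 6.49, 6.41 and 6.52 on the control arrays and 5.67, 6.33 and 6.09 on the day 1 arrays. The Parp9 arrays of day 3 gave 6.99, 7.15 and 7.20, those of day 4 gave 7.74, 7.73 and 7.53 and those of day 5 gave 6.87, 6.82 and 7.12. At later times Parp9 read 7.36, 7.33 and 7.39 (day 7), 7.42, 7.25 and 7.32 (day 9) and 7.25, 7.37 and 7.57 (day 11). Parp9 lay above control on all arrays from day 3 on and fell back on day 5. Parp9, which works in a complex with the ubiquitin ligase Dtx3l, was 1.19 higher on day 4 (SE 0.137, adjusted p = 3.07e-07, 2.29-fold) and 0.46 higher on day 5, a call lost without control replicate 2 (0.44, adjusted p = 0.0507) or day 5 replicate 3 (0.37, adjusted p = 0.0787). Dtx3l, whose gene model overlaps that of Parp9 on chromosome 16, was higher on all 6 days by 0.54 to 0.95, with 0.95 on day 4 and 0.83 on day 5. Trim25, the ligase that activates RIG-I, was higher on all 6 days by 0.46 to 0.82; the day 3 call (0.46) was lost without control replicate 1 (0.42, adjusted p = 0.0714), control replicate 2 (0.46, adjusted p = 0.0538) or day 3 replicate 1 (0.37, adjusted p = 0.106). Parp12, which acts on viral RNA and proteins, was higher from day 4 on by 0.44 to 0.64.

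The largest change of any member was in Rtp4, a chaperone of G-protein-coupled receptors that interferon induces. In control cells Rtp4 read 3.86, 3.67 and 3.78, and after a day in lactic acid 3.96, 3.67 and 3.67. By day 3 Rtp4 was at 6.83, 6.20 and 6.41, by day 4 at 7.69, 7.52 and 7.63 and by day 5 at 6.49, 6.52 and 6.46. Rtp4 signals were 8.11, 7.89 and 7.94 at day 7, 8.07, 8.18 and 8.03 at day 9 and 8.13, 8.20 and 8.03 at day 11. No array from day 3 on came near the control arrays, day 1 overlapped them, and day 5 fell back to the level of day 3. Rtp4 was 4.35 higher on day 11 (SE 0.131, adjusted p = 1.13e-16), a 20.4-fold rise, after 14.3-fold on day 4, 6.58-fold on day 5 and 18.5-fold on day 7. Ifi27 kept to a narrower range, between 2.15 and 2.82 from day 3 on. Xaf1, a pro-apoptotic partner of XIAP, was higher by 0.89 to 2.10 and Ifi35, a regulator of RIG-I signalling, by 0.76 to 1.86 on those 6 days.

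Members with and without the response element core in the promoter window both rose. Of the 9 measured members with the response element core, 7 were higher on at least 1 day and 3 on all 6 days from day 3, with a median over members of 0.93 for the mean change of those days. Of the 23 with a promoter entry and no core, 21 were higher on at least 1 day and 11 on all 6, with a median of 0.70. In control, 4 of the 9 and 4 of the 23 lay below the median gene. Members without a promoter entry are in neither group. They include Rtp4, Ifi27 and Usp18, which were higher on all 6 days, and Zbp1 and Mx1, which were never called. Rsad2 and Socs1 hold the core shown above and were not called, whereas Irf7 and Irf9 lack it in the window and were among the strongest. Of the 15 members dimmer in control than the median gene (5.11), 7 were higher on all 6 days, and of the 27 brighter members 13 were. Of the 9 measured members with the gamma-activated site, 8 were higher on at least 1 day and 3 on all 6, with a median of 0.68. Of the 23 with a promoter entry and no such site, 20 were higher on at least 1 day and 11 on all 6, with a median of 0.81. These groups are compared as counts only.

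Upstream of these genes, the interferons themselves showed little. Of 15 measured ligand genes, 12 lay below the median gene in every group. Ifnb1, the first type I interferon made by most cells, read 2.78 to 2.94 in control and 2.59 to 3.20 from day 3 on, and was called on no day. Its highest signal, 4.02, was on day 1 replicate 1. Ifng was called on no day either, with 3.69 to 3.81 in control and 3.51 to 4.19 from day 3 on. Ifnz, a type I interferon gene of the mouse, was the only ligand higher on any day: 7.21, 6.23 and 6.63 in control and 7.55, 7.78 and 7.64 on day 3, a change of 0.97 (SE 0.19, adjusted p = 0.000381). It was 0.81 and 0.78 higher on days 4 and 5 and was not called later. Ifna5 was lower on days 5 and 7, by 0.48 and 0.49 on the log2 scale.

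Other signalling genes moved in both directions. On day 11, 5 of 13 were higher and 2 lower, with 14.0% and 11.8% of all genes. Jak1, the kinase shared by both receptors, read 9.07, 9.11 and 9.14 in control and 9.64, 9.60 and 9.62 on day 11; it was higher from day 4 on by 0.49 to 0.51. Tyk2, its partner at Ifnar1, was called on no day (-0.41 to 0.42). Stat3 was higher from day 4 on, most on day 5 at 1.03 (SE 0.125, adjusted p = 9.52e-07). Socs3, a feedback inhibitor of cytokine receptors, was higher on days 5 and 7, by 1.12 and 0.65. Socs2, an inhibitor of growth hormone signalling, was 1.58 lower on day 1 and 0.95 higher on day 11, with day 1 signals of 4.27, 4.91 and 4.89 against 6.23, 6.28 and 6.30 in control. The phosphatase Ptpn6, which acts on cytokine receptors, was lower from day 3 on, with -1.33 on day 11 (SE 0.153, adjusted p = 3.31e-07).

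The factors that lead to interferon production were called in both directions. Of 19, 1, 1, 3, 4, 1 and 1 were higher on days 3, 4, 5, 7, 9 and 11, beside 12.4% to 17.2% of all genes. Those lower on the same days were 4, 6, 0, 1, 5 and 6, beside 9.44% to 14.0% of all genes. Their median change was 0.06 on day 5, 0.03 on day 7 and -0.26 on day 11. Tlr3, an endosomal receptor of double-stranded RNA, was the one higher on all 6 days, with 1.25 on day 4 (SE 0.121, adjusted p = 2.35e-08). Ikbke, a kinase of Irf3 and Irf7, was lower on days 3, 4, 7, 9 and 11 and reached -1.42 on day 11 (SE 0.14, adjusted p = 2.82e-08). The kinase Tbk1 was called on no day. Mavs, the adaptor of RIG-I and MDA5, was lower on days 3, 4, 9 and 11, with -0.60 on day 9, and Cgas, the cytosolic DNA sensor, on days 4, 9 and 11, with -0.86 on day 9. Irf3 was higher on day 7 only (0.53, adjusted p = 0.0326) and Sting1, the adaptor of Cgas, was higher on day 5 (0.61) and lower on day 9 (-0.52). Sting1 read 9.157, 8.24 and 8.302 on day 9, beside 9.225, 8.976 and 9.052 in control. Only replicates 2 and 3 of day 9, which stood apart, thus lay below control. Mavs read 8.027, 7.243 and 7.366 on day 9, beside 8.198, 8.055 and 8.192 in control, with replicate 1 close to control.

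Of 47 further interferon-stimulated genes, 16, 22, 21, 25, 20 and 21 were higher on days 3, 4, 5, 7, 9 and 11, with 1, 1, 0, 3, 5 and 3 lower; over all genes 12.4% to 17.2% were higher and 9.44% to 14.0% lower on those days. On day 1, 0 were higher and 4 lower, beside 2.30% and 2.52% of all genes. The median change was 0.56 on day 7 and 0.29 on day 11. Slfn2, a schlafen protein that keeps immune cells quiescent, read 5.49, 5.33 and 5.17 in control and 8.76, 8.76 and 8.66 on day 4, a change of 3.40 (SE 0.17, adjusted p = 7.07e-13). Trim30a, a negative regulator of innate signalling, was 2.72 higher on day 11 and Lgals3bp, a secreted glycoprotein, 2.58 higher on day 7. Slfn9 was the largest late fall, at -1.21 on day 9 (adjusted p = 0.00227). Xdh, xanthine dehydrogenase, was -1.13 on day 1 (SE 0.11, adjusted p = 1.58e-06), with 6.78, 7.01 and 6.93 against 7.78, 8.17 and 8.16, and was higher on all later days.

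For scale, in the families kept out of the list, 7 of 11 measured interferon-induced GTPases were higher on day 11 and 0 lower, and of 19 genes of antigen presentation 11 were higher and 2 lower, beside 14.0% and 11.8% of all genes. Their medians were 0.94 and 0.61, beside 0.72 for the 42 members. No test of these differences was made.

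**Figure D4:**
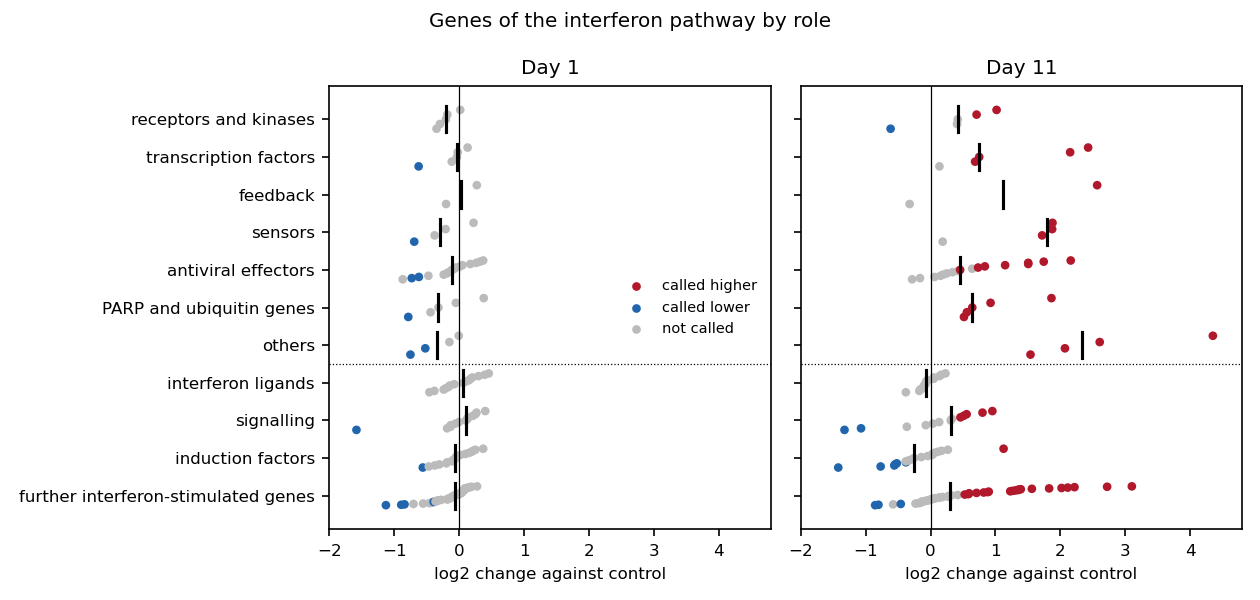
Fitted log2 change against control (horizontal axis) on day 1 and day 11 of every measured member by role, above the dotted line, and of other genes of the interferon pathway, below it; each point is a gene, red where called higher, blue where called lower and grey otherwise, and the black bar is the median of the row. On day 11 the ligands cluster at 0 with no call, while the sensors (median 1.80) and the group with Rtp4 and Ifi27 (median 2.34) lie furthest to the right.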

How the data were processed

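RNA was extracted with RNeasy kits and biotin-labelled as cRNA for Affymetrix arrays, per the labels' protocols. The deposited table holds log2 signals, made by RMA in version 1.1 of Affymetrix Expression Console according to the submitters' processing notes. Their base was inferred from the range, 0.96 to 14.71. Of 35557 probe sets, 21789 had 1 gene symbol in the platform annotation of 2016, 1621 had several and 12147 none. A gene was read from its single-symbol probe set with the highest mean over the 24 arrays (19938 genes). Signals of different probe sets have no common scale, so bright and dim describe probe sets and not expression.

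A group-means model of all 24 arrays (16 residual degrees of freedom) was fitted with limma 3.58.1 in R 4.3.3, and Benjamini-Hochberg adjustment ran over all genes of each comparison. The fit was run on simulated independent noise with the same spread in every group and no outlying array. Those settings differ from these data, so that run does not bear on the arrays that stood apart. With 3 arrays a group, their number limits the precision; since separate cultures are not stated, p-values may measure technical spread only. Fold changes are 2 to the power of the log2 change. The members and all other gene lists were chosen with earlier results of these data known. Signals on every array are given for the 2 members of each role (6 of the effectors) with the largest called change, and for the member most often lower; others were named after their values were seen. Of the other pathway genes, up to 3 rises and 2 falls a list were named, besides Ifnb1, Ifng, Jak1, Tyk2, Irf3, Mavs, Tbk1 and Socs3; 1 further gene is not reported here. Alternatives covered the probe set, dim genes, cyclic loess, centring, the variance model, array weights, the replicate block, the arrays fitted, the threshold and each array left out. Same-numbered arrays of different groups were not paired: 16 of 84 pairs had a correlation of deviations above 0.1. Promoter sequences are those of RefSeq on GRCm38.p6. Figures were drawn with matplotlib 3.10.9.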

Additional observations from a re-analysis of the deposited data

Results flagged for a closer look

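In 7 members the change against control on day 1 opposed the change on a later day. The step from day 1 to day 3 in the same limma fit compares these days without a control array. The 7 were picked for low day 1 signals, which enter this step again, so its p-values are not an independent test. That step was 2.90 in Ifi27 (SE 0.101, adjusted p = 5.08e-15, day 1 at -0.75 against a later high of 2.82) and 1.95 in Parp14 (SE 0.131, adjusted p = 1.29e-10, -0.78 and 2.04). It was 1.39 in Ifih1 (-0.69 and 1.88), 1.28 in Ifi35 (-0.52 and 1.86) and 1.02 in Eif2ak2 (-0.73 and 1.00). Irf1 gave 0.87 (-0.62 and 0.79) and Oasl1 0.57 (SE 0.179, adjusted p = 0.0193, -0.62 and 0.54). All 3 day 3 arrays lay above all 3 day 1 arrays in each of the 7 genes. Against control, Ifi27, Parp14, Ifih1 and Ifi35 were called higher on day 3. Irf1 (0.24), Eif2ak2 (0.29) and Oasl1 (-0.05) were not called on that day. In Irf1, Eif2ak2 and Oasl1 the step thus shows a rise from day 1 and does not test their later rise above control. For Eif2ak2 the day 1 arrays read 5.35, 6.76 and 6.42, and the first of them is the array with the narrow spread of signals; without it the day 1 change was -0.32 (adjusted p = 0.191).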

How the results depend on the processing

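Counts of members called on days 3 to 11 against control, from day 1 to day 3 and by the F test stayed within 1.5 times under every alternative run; the day 1 count and the later steps did not. Array weights, whose estimation stopped before reaching its convergence tolerance, gave 24 calls on day 1, 23 from day 3 to 4, 15 from day 4 to 5, 22 from day 5 to 7, 28 from day 7 to 9 and 12 from day 9 to 11. On day 1 the same weights called 21.8% of all genes higher and 21.5% lower. Without the 40% dimmest genes, which removed 6 members, the calls were 11 from day 4 to 5, 15 from day 5 to 7 and 4 from day 7 to 9; after cyclic loess they were 14, 16 and 0 (13 at an unadjusted p below 0.05). From day 7 to 9, centred arrays gave 0 (10 unadjusted), the mean of all probe sets 1, and a mean trend with robust variances 4. At an adjusted p below 0.01, limma called 3 members on day 1, 8 from day 3 to 4 and 0 from day 7 to 9 (17 unadjusted). Without the 3 arrays that stood apart, calls were 23 from day 3 to 4, 14 from day 4 to 5 and 21 from day 5 to 7, and day 9 was left with 1 array. With only the 6 arrays compared, they were 0 on day 1 (8 unadjusted), 14 from day 5 to 7 and 0 from day 7 to 9 (13 unadjusted). Leaving out 1 array gave 3 to 9 calls on day 1, 7 to 10 from day 3 to 4, 5 to 11 from day 4 to 5 and 0 to 16 from day 7 to 9. With the replicate block, 6 members were called on day 1, 24 on day 3 and 28 on day 11; it moved no count by over 1.5 times, and of the values of a member on a day 4 lost the call and 2, both outside the 184 called, gained it. Array weights turned the day 1 changes of Irf7 to 0.27 (adjusted p = 0.0432) and of Mx2 to -0.24 (adjusted p = 0.0151), neither called without them. Shares of all genes were not worked out for the step counts and the unadjusted counts under these alternatives. The causes were not tested.

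Of the 184 called values, 24 lost the call without some 1 array. With 3 arrays a group and 15 members dim in control, a small change in a dim member may go undetected, and a missed threshold does not show that a gene did not change.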
